A study of Homo sapiens with 8 samples.

Results

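The non-clustered protocadherins PCDH1, PCDH7, PCDH9, PCDH10, PCDH17, PCDH18, PCDH19 and PCDH20 were followed in MDA-MB-231, a human cell line established from breast cancer of the triple-negative kind. The 8 genes were taken by symbol from 60646 genes in a table of RNA-seq counts. The comparison was of 4 samples labelled DOT1L knockout (DOT1L/+), made with a guide RNA against the first exon of DOT1L, with 4 wild-type samples of the same line. All samples were plated at about the same density, grown in medium with serum and collected the next day, and RNA was depleted of ribosomal RNA before sequencing. The number of edited alleles is not in the labels, nor whether the knockout cells are a single clone or the samples of a group separate cultures. DOT1L is the methyltransferase of lysine 79 of histone H3, a mark of transcribed genes, and the title of the series names MYC and Mondo turnover on chromatin as its subject.

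Protocadherins are cadherin-family proteins that span the cell membrane, carry calcium-binding cadherin repeats outside the cell and bind like molecules on neighbouring cells. The clustered genes lie in a tandem array, while the non-clustered ones are scattered over the genome. PCDH1, PCDH7 and PCDH9 belong to the delta-1 subgroup, whose tails carry a binding site for protein phosphatase 1, and PCDH10, PCDH17, PCDH18 and PCDH19 to the delta-2 subgroup, several of which recruit the WAVE complex that builds branched actin. They are best known from the developing brain, where they guide axons and sort neurons. In breast cancer PCDH7 is known for joining metastatic cells to astrocytes, and PCDH10, PCDH17 and PCDH20 as genes often silenced in tumours by promoter methylation.

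The promoter windows of PCDH17, which had the largest change, PCDH7, which had the highest level, and PCDH19, which stayed near 0, are printed here 5′ to 3′ on the strand of the gene. They run from 250 bases before to 50 bases after the RefSeq start (GRCh38.p14), and capitals mark stretches of GAGAGA on either strand. The PCDH17 window is chr13:57631494-57631793 on the plus strand, that of PCDH7 chr4:30720119-30720418 on the plus strand, and that of PCDH19 chrX:100410224-100410523 on the minus strand.
PCDH17: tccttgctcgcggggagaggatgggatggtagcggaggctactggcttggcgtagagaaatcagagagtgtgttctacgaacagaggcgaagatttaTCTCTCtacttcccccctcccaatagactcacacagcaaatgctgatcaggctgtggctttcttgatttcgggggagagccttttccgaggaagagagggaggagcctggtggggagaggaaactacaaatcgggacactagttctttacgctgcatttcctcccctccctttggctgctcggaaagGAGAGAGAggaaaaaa
PCDH7: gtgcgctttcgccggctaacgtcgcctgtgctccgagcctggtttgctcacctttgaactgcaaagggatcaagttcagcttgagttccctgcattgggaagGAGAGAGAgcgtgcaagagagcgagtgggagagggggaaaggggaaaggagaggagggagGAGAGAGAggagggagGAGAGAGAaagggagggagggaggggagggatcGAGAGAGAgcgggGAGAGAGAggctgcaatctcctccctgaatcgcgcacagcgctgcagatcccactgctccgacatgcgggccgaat
PCDH19: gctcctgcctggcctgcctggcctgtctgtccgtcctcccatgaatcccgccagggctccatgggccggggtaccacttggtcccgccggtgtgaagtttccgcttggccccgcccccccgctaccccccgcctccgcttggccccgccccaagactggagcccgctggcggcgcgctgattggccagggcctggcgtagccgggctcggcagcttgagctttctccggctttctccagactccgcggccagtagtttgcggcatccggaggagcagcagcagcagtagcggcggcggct

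Windows were found for 6 of the 8 genes, those of PCDH1, PCDH7, PCDH9, PCDH17, PCDH18 and PCDH19. The E-box CACGTG, to which MYC and Mondo dimers bind, was in 0 of the 6 windows on either strand, and in 7.26% of all 35116 promoter windows of the same length. TATAAA, searched on both strands, was in 0 of 6 windows and in 11.5% of all windows. GAGAGA, chosen after the sequences were seen and also searched on both strands with overlapping matches merged, was in 5 of 6 windows, all but that of PCDH19, and in 22.4% of all windows. It covered 40 bases in 5 stretches in PCDH7 and 14 bases in 2 stretches in PCDH17. Since a single motif was found in these windows, no matches of different motifs overlapped. GC content ran from 52.7% in PCDH17 to 71.0% in PCDH19, against a median of 58.7% over all windows. The ratio of observed to expected CpG was lowest in PCDH1 (0.246) and highest in PCDH19 (0.694), with a median over all windows of 0.579. The PCDH1 window, at 141869578 to 141869877 on the minus strand, lies inside the annotated gene, downstream of its start at 141879246. The other windows lie at or next to the annotated gene starts. The motif and base content given for PCDH1 thus describe an internal RefSeq start, and the sequence at its annotated gene start was not examined. A match is a description of these letters and was not tested as a binding site.

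Libraries held 40103408 to 50031412 counts assigned to genes, so that 1 count stood for 0.0198 to 0.0250 CPM, the level scaled to library size with trimmed-mean factors. Correlations of log2 CPM were 0.994 to 0.998 within groups and 0.953 to 0.958 between groups. The targeted gene DOT1L stood at 84.7 ± 5.91 CPM in knockout and 109 ± 8.52 CPM in wild-type samples (SD, n = 4 each), and its log2 change was -0.37 (SE 0.06, edgeR adjusted p = 2.83e-05). The summed level of VIM, CD44, AXL and MSN, genes high in this line, was 6309 to 6691 CPM in knockout and 5528 to 6397 CPM in wild-type samples. That of ESR1, PGR, CDH1, EPCAM and ERBB3, which are low or absent in it, was 9.20 to 12.4 CPM in knockout and 9.52 to 11.3 CPM in wild-type samples. The sums hide genes that moved. VIM rose by 0.40 and AXL changed by -0.30 on the log2 scale (adjusted p = 8.82e-06 and 1.66e-05). ESR1 stood at 0.538 ± 0.252 CPM in knockout and 0.262 ± 0.131 CPM in wild-type (adjusted p = 0.0333). That call was lost without knockout replicate 2 or 3 (adjusted p = 0.165 and 0.0794). It was also lost without wild-type replicate 1, 2 or 5 (adjusted p = 0.105, 0.0855 and 0.0644). The call held without knockout replicate 1 or 5 or wild-type replicate 3. ESR1 passed the filter on low counts only through the knockout samples (4 at the cutoff, against 2 in wild-type). CDH1, which was not tested, had 7 to 14 counts per knockout library and at most 1 per wild-type library. CD44, MSN, EPCAM and ERBB3 did not pass.

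Of the 8 genes, PCDH1, PCDH7, PCDH9, PCDH10 and PCDH17 rose in the knockout samples, and 0 of the 6 tested fell. PCDH18 was tested and did not pass, and PCDH19 and PCDH20 had too few counts for the test. The test was edgeR's quasi-likelihood test with Benjamini-Hochberg adjusted p below 0.05 over all 19877 genes tested, and in it 47.6% of all genes passed, 23.9% higher and 23.6% lower in knockout. The higher share of the genes that passed was 50.3% with trimmed-mean scaling, 61.9% with upper-quartile scaling and 61.2% with library totals. With the added limit of a change of at least 2-fold upward, which those 5 genes also met, the share of all genes was 6.72%. Among the 7888 tested genes of mean log2 CPM below 2, where PCDH10, PCDH17 and PCDH18 lie, 24.8% were higher and 10.2% lower in knockout. PCDH17 passed the filter on low counts only through the knockout samples (4 of 4 at the cutoff of 0.213 CPM before trimmed-mean scaling, against 2 of 4 wild-type samples), so that its place among the tested genes rests on the group in which it is high. In bulk RNA, fewer cells with a transcript and less of it per cell cannot be told apart.

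**Figure D1:**
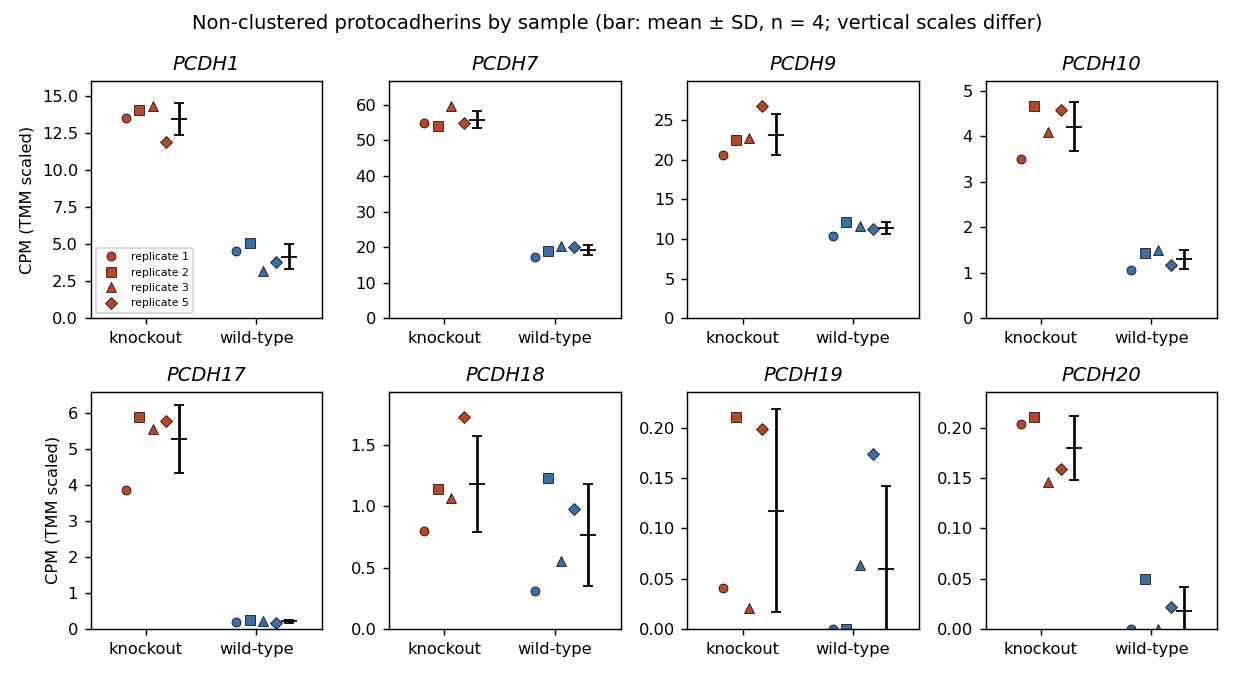
Level of each non-clustered protocadherin in CPM (vertical axis, a scale of its own per gene) in the 4 knockout samples (left, red) and the 4 wild-type samples (right, blue), with marker shapes for the replicate number and a bar for the mean ± SD, drawn down to 0 at most. The groups lie apart for PCDH1, PCDH7, PCDH9, PCDH10, PCDH17 and PCDH20 and overlap for PCDH18 and PCDH19.

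PCDH7 (ENSG00000169851, chromosome 4, 30720415 to 31146805, plus strand, GENCODE 29 on GRCh38), the delta-1 protocadherin tied to brain metastasis, had the highest level of the 8 per kb of exon. It stood at 54.8, 54.2, 59.5 and 55.0 CPM in knockout replicates 1, 2, 3 and 5, and at 17.2, 19.0, 20.4 and 19.9 CPM in wild-type replicates 1, 2, 3 and 5. Every knockout sample was above every wild-type sample, and by any margin this held for 21.3% of all tested genes. The means were 55.9 ± 2.48 CPM in knockout and 19.1 ± 1.39 CPM in wild-type (SD, n = 4 each), with a log2 change of 1.55 (standard error 0.06, adjusted p = 1.11e-14), or 2.92-fold (95% interval 2.68 to 3.18). It had the smallest relative spread of the 8 genes in knockout, with an SD of 4.44% of the mean. Its promoter window, given earlier in letters, is the one with 5 GAGAGA stretches.

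PCDH1 (ENSG00000156453, chromosome 5, 141853111 to 141879246, minus strand) is a delta-1 protocadherin of epithelia and a receptor of some hantaviruses. It changed by a factor close to that of PCDH7. Its levels were 13.5, 14.1, 14.3 and 11.9 CPM in knockout replicates 1, 2, 3 and 5, and 4.55, 5.06, 3.15 and 3.79 CPM in wild-type replicates 1, 2, 3 and 5. The groups did not overlap, and the wild-type samples varied more among themselves, the SD being 8.15% of the mean in knockout and 20.3% in wild-type. The means were 13.4 ± 1.09 CPM in knockout and 4.14 ± 0.840 CPM in wild-type (n = 4 each), with a log2 change of 1.70 (standard error 0.12, adjusted p = 4.02e-10).

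PCDH9 (ENSG00000184226, chromosome 13, 66302834 to 67230445, minus strand), a delta-1 protocadherin of the brain and the longest of these genes at 928 kb, had the smallest change of those that passed. Its levels were 20.6, 22.5, 22.8 and 26.7 CPM in knockout replicates 1, 2, 3 and 5, and 10.4, 12.2, 11.6 and 11.2 CPM in wild-type replicates 1, 2, 3 and 5. Knockout replicate 5 was the highest sample and the groups did not overlap. The means were 23.1 ± 2.59 CPM in knockout and 11.3 ± 0.751 CPM in wild-type (n = 4 each), with a log2 change of 1.03 (standard error 0.08, adjusted p = 7.12e-10). The gene overlaps 6 other annotated genes, 5 of them on the opposite strand, and together these held 2 counts over the knockout and 3 over the wild-type samples.

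PCDH17 (ENSG00000118946, chromosome 13, 57631810 to 57729311, plus strand), a delta-2 protocadherin that recruits WAVE and Ena/VASP proteins in axons, had the largest change. Its levels were 3.86, 5.87, 5.54 and 5.77 CPM in knockout replicates 1, 2, 3 and 5, and 0.189, 0.250, 0.232 and 0.174 CPM in wild-type replicates 1, 2, 3 and 5. The wild-type values rest on 8 to 11 counts per library, 37 in all, and the knockout values on 189 to 291 counts, 1024 in all. Knockout replicate 1 was the lowest of its group and still well above every wild-type sample. The means were 5.26 ± 0.946 CPM in knockout and 0.212 ± 0.0358 CPM in wild-type (n = 4 each), with a log2 change of 4.62 (standard error 0.21, adjusted p = 1.55e-13), or 24.6-fold (95% interval 18.3 to 33.2). By size of rise the gene ranked 49 of 19877. On the deposited variance-stabilized log2 scale, which compresses low counts, the difference was 2.12.

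PCDH10 (ENSG00000138650, chromosome 4, 133149315 to 133208606, plus strand), the delta-2 protocadherin also known as OL-protocadherin, moved by about the same factor as PCDH1. Its levels were 3.49, 4.65, 4.10 and 4.58 CPM in knockout replicates 1, 2, 3 and 5, and 1.06, 1.43, 1.50 and 1.18 CPM in wild-type replicates 1, 2, 3 and 5. All knockout samples lay above all wild-type samples. The means were 4.21 ± 0.537 CPM in knockout and 1.29 ± 0.207 CPM in wild-type (n = 4 each), with a log2 change of 1.70 (standard error 0.15, adjusted p = 4.69e-09).

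PCDH18 (ENSG00000189184, chromosome 4, 137518918 to 137532494, minus strand), a delta-2 protocadherin whose mouse form binds the adaptor Dab1, did not pass the test. Its levels were 0.796, 1.14, 1.07 and 1.73 CPM in knockout replicates 1, 2, 3 and 5, and 0.307, 1.227, 0.549 and 0.981 CPM in wild-type replicates 1, 2, 3 and 5. The groups overlapped, and wild-type replicate 2 stood above knockout replicates 1, 2 and 3. The means were 1.18 ± 0.391 CPM in knockout and 0.766 ± 0.415 CPM in wild-type (n = 4 each), and the log2 change was 0.63 (SE 0.35, 95% interval -0.13 to 1.40, adjusted p = 0.164). With the replicate number as a block the change was 0.67 (adjusted p = 0.0119), and without wild-type replicate 2 it was 0.93 (adjusted p = 0.0368), so whether this gene passed depended on the fit. The value was 0.38 without wild-type replicate 1 (adjusted p = 0.311) and 0.39 without knockout replicate 5 (adjusted p = 0.379).

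PCDH20 (ENSG00000280165, chromosome 13, 61409685 to 61415522, minus strand), a protocadherin reported as silenced in lung cancer, was near the floor of detection. It had 10, 10, 7 and 8 counts in knockout replicates 1, 2, 3 and 5, and 0, 2, 0 and 1 counts in wild-type replicates 1, 2, 3 and 5. Every knockout library held more than any wild-type library, but the wild-type total was 3 counts. The ratio of totals scaled to library size was 10.5 (95% counting interval 3.31 to 53.4), and a two-sided exact permutation test of CPM over the 8 samples gave p = 0.0286, the smallest that 4 against 4 samples allow. With exchange only within pairs of the same replicate number the exact permutation test gave p = 0.125, the smallest that 4 pairs allow.

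PCDH19 (ENSG00000165194, chromosome X, 100291644 to 100410273, minus strand), the delta-2 protocadherin mutated in an epilepsy of girls, was also near the floor. It had 2, 10, 1 and 10 counts in knockout replicates 1, 2, 3 and 5, and 0, 0, 3 and 8 counts in wild-type replicates 1, 2, 3 and 5. The groups overlapped, and the SD was 85.6% of the mean in knockout and 138% in wild-type. The ratio of totals was 1.88 (95% counting interval 0.882 to 4.28), and the two-sided exact permutation test gave p = 0.343 (0.50 with exchange within pairs), so no difference was detectable at this depth. Its promoter window was the richest of the 6 in GC and held no GAGAGA.

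The 95% intervals of the log2 changes of PCDH1 (1.46 to 1.95), PCDH7 (1.42 to 1.67) and PCDH10 (1.39 to 2.01) overlapped each other. The interval of PCDH9 (0.86 to 1.19) lay below them and that of PCDH17 (4.19 to 5.05) above them. The differences between genes were not tested.

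Per kb of annotated exon, PCDH7 was the highest gene in both groups, at 4.56 ± 0.203 CPM per kb in knockout and 1.56 ± 0.114 CPM per kb in wild-type (n = 4 each). PCDH1 followed at 2.27 ± 0.185 and PCDH9 at 0.748 ± 0.0838 CPM per kb in knockout, with 0.701 ± 0.142 and 0.367 ± 0.0243 CPM per kb in wild-type. PCDH17 was next in knockout at 0.632 ± 0.114 CPM per kb, overlapping PCDH9, whereas in wild-type at 0.0254 ± 0.00430 CPM per kb it stood under PCDH10 (0.127 ± 0.0203) and PCDH18 (0.115 ± 0.0621). PCDH10 at 0.414 ± 0.0528 and PCDH18 at 0.177 ± 0.0585 CPM per kb were the next genes in knockout. PCDH20 and PCDH19 came last in knockout, at 0.0377 ± 0.00673 and 0.0121 ± 0.0103 CPM per kb, and overlapped each other at the bottom of the wild-type order. Neighbours in the order whose samples overlapped were PCDH9 and PCDH17 in knockout, and PCDH10 and PCDH18 as well as PCDH19 and PCDH20 in wild-type. The 8 genes together summed to 8.85 ± 0.363 CPM per kb in knockout and 2.91 ± 0.204 CPM per kb in wild-type, and PCDH7 made up 51.5% ± 1.65 of the sum in knockout and 53.8% ± 4.10 in wild-type (SD, n = 4 each). The level of PCDH7 depends on the length used, and per kb of the longest transcript it was 8.25 ± 0.367 CPM in knockout and 2.82 ± 0.206 CPM in wild-type, 62.3% ± 1.46 of the sum of 13.3 ± 0.519 in knockout and 64.1% ± 3.89 of the sum of 4.41 ± 0.272 in wild-type.

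**Figure D2:**
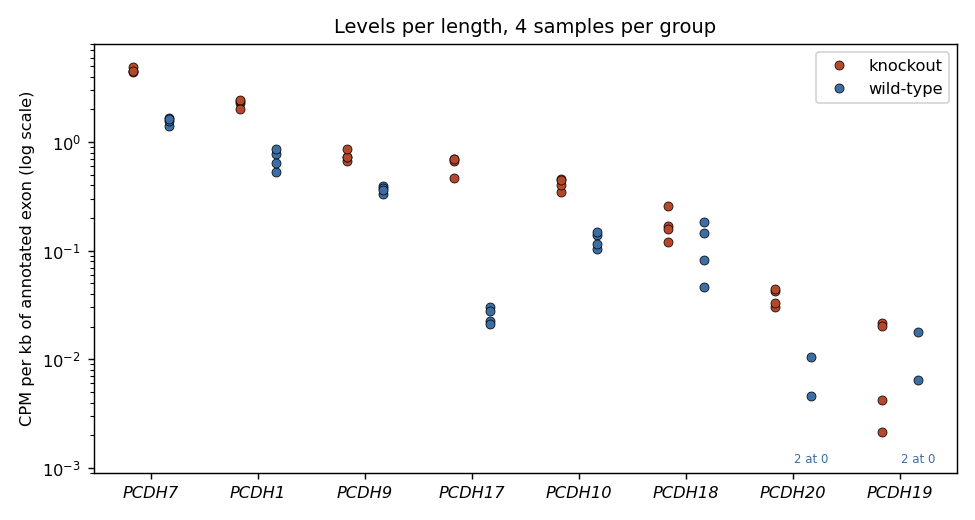
Level per kb of annotated exon (vertical axis, log scale, CPM per kb) for the 8 genes ordered by their knockout mean, with 1 point per sample, knockout in red at the left and wild-type in blue at the right of each gene. PCDH17 is the gene whose place in the order differs most, at a mean of 0.632 CPM per kb in knockout and 0.0254 CPM per kb in wild-type, and samples at 0 are counted at the foot.

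Among the other non-clustered protocadherins, PCDH11X, PCDH12 and PCDH15 rose and PCDH8 had 0 counts in all 8 samples. All 3 tested genes of this list rose, beside 23.9% of all tested genes and 24.8% of those of mean log2 CPM below 2. PCDH11X, the remaining delta-1 gene, stood at 0.755 ± 0.280 CPM in knockout and 0.0854 ± 0.0400 CPM in wild-type (n = 4 each), a log2 change of 3.10 (adjusted p = 1.68e-06), and its level is uncertain because a near-identical copy exists in the genome. PCDH12, a protocadherin of blood vessels, stood at 1.18 ± 0.103 CPM in knockout and 0.334 ± 0.186 CPM in wild-type, a log2 change of 1.84 (adjusted p = 9.58e-06). PCDH15, which forms the tip links of hair cells, stood at 1.15 ± 0.251 CPM in knockout and 0.152 ± 0.0560 CPM in wild-type, a log2 change of 2.89 (adjusted p = 4.54e-08). All 3 passed the filter on low counts only through the knockout samples, 4 of which were at its cutoff for each gene, against 0 wild-type samples for PCDH11X and PCDH15 and 3 for PCDH12. Their places among the tested genes thus rest on the group in which they are high.

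Of 20 type I, type II and truncated cadherins 7 were tested, and 3 rose, 2 fell and 2 did not pass, with a median log2 change of 0.28 against 0.00 over all tested genes, of which 23.9% rose and 23.6% fell. These and the counts of the lists that follow are descriptions, and no list was tested against the other genes. CDH4, a cadherin of retina and brain, fell to 110.7 ± 2.38 CPM in knockout, against 175 ± 12.6 CPM in wild-type (log2 change -0.66, adjusted p = 7.13e-10). CDH12 fell to 0.354 ± 0.0464 CPM in knockout, against 2.46 ± 0.314 CPM in wild-type (log2 change -2.79, adjusted p = 1.24e-10). CDH10, a type II cadherin of the nervous system like CDH12, stood at 1.05 ± 0.186 CPM in knockout and 0.124 ± 0.0470 CPM in wild-type (log2 change 3.04, adjusted p = 2.95e-08), having passed the filter through the knockout samples alone, and CDH24 rose by 0.72 (adjusted p = 3.64e-05). CDH8, named after its value was seen, likewise passed the filter only through the knockout samples (4 at the cutoff, against 2 in wild-type). It rose by 0.91 (adjusted p = 0.0385), a call lost in DESeq2 (0.0731) and without any 1 of 6 samples (0.0518 to 0.129). Of 9 large atypical cadherins 7 were tested, and 1 rose, 4 fell and 2 did not pass, with a median log2 change of -0.58. FAT3 rose by 2.55, while the planar polarity cadherins CELSR1 and CELSR2 and the FAT family member FAT1 changed by -0.58, -0.70 and -0.70 (adjusted p = 2.21e-07, 5.18e-08, 4.38e-09 and 1.51e-06 in that order). Of 7 catenins 4 were tested, and 0 rose, 2 fell and 2 did not pass (median -0.10). CTNNB1, which links cadherins to the cytoskeleton and carries WNT signals, changed by -0.57 (adjusted p = 6.17e-10), and CTNNA1 by -0.25 (adjusted p = 0.000211).

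All 13 genes of the WAVE complex and the Ena/VASP group were tested, and 5 rose, 4 fell and 4 did not pass (median log2 change 0.03), beside 23.9% higher and 23.6% lower over all tested genes. CYFIP2, a WAVE complex subunit, stood at 24.9 ± 1.42 CPM in knockout and 11.7 ± 0.959 CPM in wild-type (log2 change 1.09, adjusted p = 4.43e-11). WASF2 rose by 0.21 (adjusted p = 0.000267), and ABI2 and ENAH changed by -0.36 and -0.34 (adjusted p = 7.16e-07 and 2.77e-05). Over all 15 alternatives 3 to 6 of the 13 rose and 4 fell, with 6 under upper-quartile scaling or library totals and 3 without wild-type replicate 5.

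Of 8 reported partners 7 were tested, and 3 rose and 4 fell (median log2 change -0.25), beside 23.9% higher and 23.6% lower over all tested genes. PPP1CA, a phosphatase that binds PCDH7, and SET, an inhibitor of phosphatase 2A that binds it too, changed by -0.32 (adjusted p = 2.15e-05) and -0.25 (adjusted p = 0.000321). GJA1, the gap junction protein that PCDH7 helps to assemble between cancer cells and astrocytes, stood at 26.0 ± 4.24 CPM in knockout and 32.3 ± 2.17 CPM in wild-type (log2 change -0.31, adjusted p = 0.0164), a call lost without wild-type replicate 3 (adjusted p = 0.0712). STING1, the sensor adaptor that such junctions activate in astrocytes, stood at 34.6 ± 2.37 CPM in knockout and 22.9 ± 4.34 CPM in wild-type (log2 change 0.60, adjusted p = 0.00362). SMAD3, which PCDH1 binds, changed by -0.29 (adjusted p = 0.00654), a call lost with library totals (adjusted p = 0.0676). TAOK2, a kinase reported with PCDH8, rose by 0.39 (adjusted p = 2.94e-07) and NONO, reported with PCDH19, by 0.24 (adjusted p = 0.000315). DAB1, reported with mouse Pcdh18, had at most 3 counts in any sample.

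Of 8 genes for proteases that cut protocadherins at the cell surface and in the membrane, 2 rose, 4 fell and 2 did not pass (median log2 change -0.12), beside the same shares of all genes, and with upper-quartile scaling or library totals 3 fell. ADAM10 and ADAM17, which shed the outer part, changed by -0.35 and -0.34 (adjusted p = 2.38e-06 and 1.11e-06). Of the gamma-secretase subunits, PSEN2 rose by 0.29 (adjusted p = 0.000684) and APH1A changed by -0.18 (adjusted p = 0.00219).

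**Figure D3:**
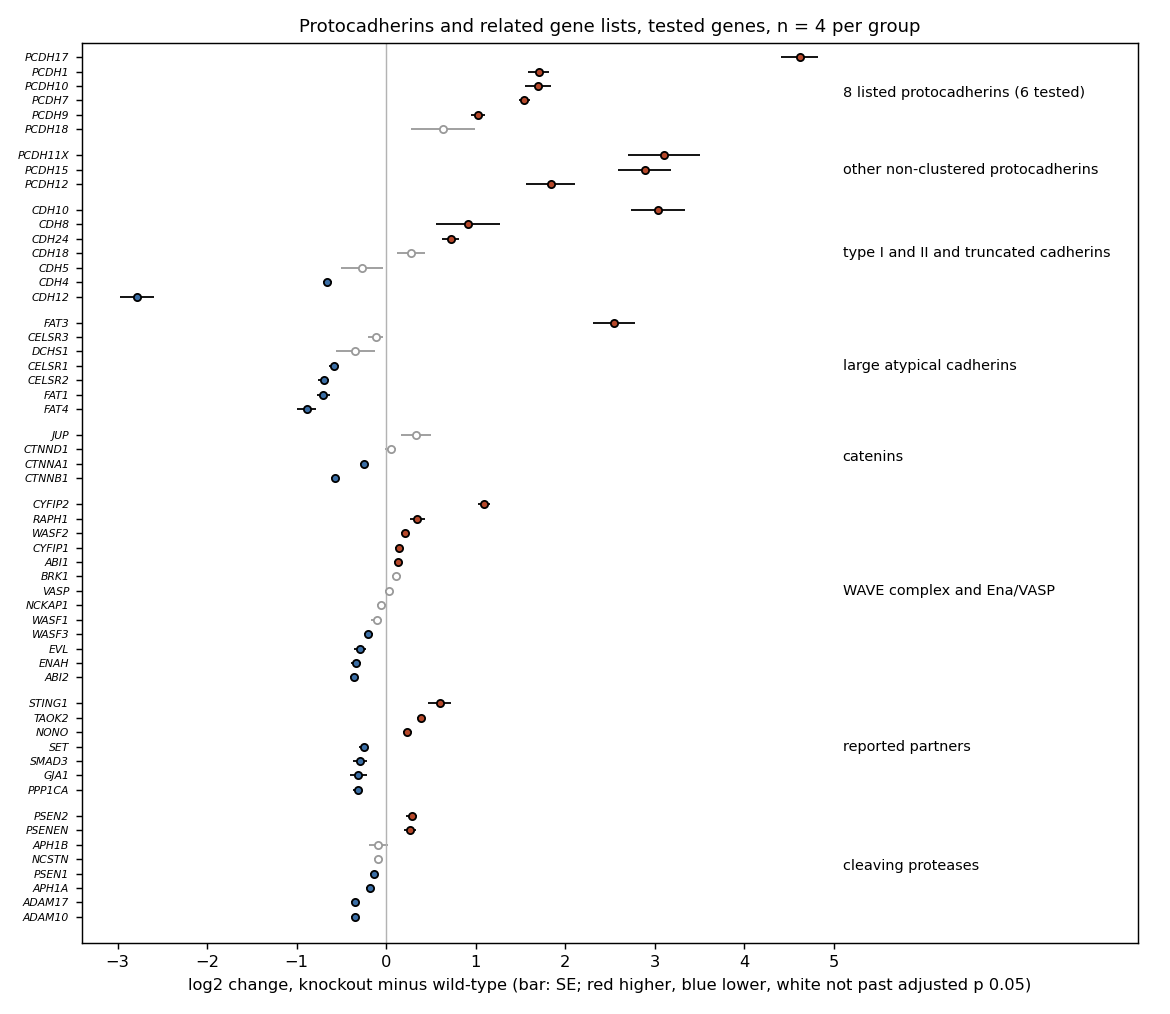
Log2 change (horizontal axis, knockout minus wild-type, bars are SE) of every tested gene of the protocadherin list and of the related lists, n = 4 per group. Red points rose, blue points fell and white points did not pass adjusted p 0.05; PCDH17 at 4.62 lies farthest right, and each list from the cadherins to the proteases, apart from the catenins, holds points on both sides of 0 that passed.

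Markers of other cell types were read beside the protocadherins, since many of these genes are known from neurons. The summed level of 7 neuronal markers was 6.61 to 8.11 CPM in knockout and 2.39 to 3.18 CPM in wild-type samples, and it came mostly from RBFOX3 and SYT1, which rose by 2.17 and 0.94 on the log2 scale (adjusted p = 7.25e-06 and 0.000145). SNAP25, STMN2, ELAVL3 and NEFL had at most 4 counts in any sample, and ELAVL4 had 0. The sum of 4 leukocyte markers was 0.397 to 0.773 CPM in knockout and 0.0634 to 0.448 CPM in wild-type samples. The sum of 4 fibroblast markers was 24.0 to 29.4 CPM in knockout and 10.8 to 19.5 CPM in wild-type samples, and it came from COL1A1 and PDGFRB. COL1A1 stood at 18.7 ± 1.06 CPM in knockout and 10.2 ± 2.11 CPM in wild-type (n = 4 each), a rise of 0.89 on the log2 scale (adjusted p = 1.41e-05), and PDGFRB at 8.39 ± 1.999 CPM in knockout and 5.61 ± 2.20 CPM in wild-type (adjusted p = 0.215). LUM and DCN had 0 counts in knockout and at most 3 in a wild-type sample. The part of these markers in the protocadherin results was not tested.

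Genes close by on the chromosome were read by their start on their own strand, within 2 Mb of the start of each protocadherin. PCDH7 had 1 such tested gene, with a log2 change of -1.10, and PCDH9 had 2, at -0.13 and 0.03, with 0 that passed. PCDH10 had 3. SNHG27 and PABPC4L rose by 0.68 and 1.06, below its own 1.70, and LINC02377 fell to 1 count over all knockout samples, against 190 over all wild-type samples (adjusted p = 3.02e-10), so that its fitted change of -7.12 depends on the prior count. PCDH17 had 0, and the nearest tested genes on either side, RPL13AP25 at 3190 kb and DIAPH3 at 1936 kb between gene ends, changed by -0.29 and -0.11 (adjusted p = 0.0237 and 0.0339). PCDH18 lay among 11 tested genes of which 9 fell and 0 rose (median -0.77, range -1.83 to -0.46), so that its 0.63 stood 1.40 above the median of its neighbours. PCDH20 had 3 such genes, of which 2 fell, and PCDH19 had 22, of which 8 rose and 5 fell. Over all tested genes 23.9% were higher and 23.6% lower. Neither these counts of neighbours nor those around PCDH1 were tested against those shares.

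PCDH1 lies beside the clustered protocadherins on chromosome 5 and had 79 tested genes within the window (median log2 change -0.05). Of these, 9 changed upward by more than PCDH1, and all 9 were protocadherins, 8 from the clusters and PCDH12. The 31 tested clustered genes in the window went both ways, 10 higher and 12 lower, with changes from -2.56 to 4.84. Reads of the exons shared within the alpha and the gamma cluster could be split, so the levels of those genes are uncertain. The other 47 genes had 7 higher and 12 lower, and the highest change among them was 1.17. The tested genes nearest to PCDH1, ARAP3 at 171 kb and DELE1 at 44.6 kb between gene ends, changed by -0.15 and -0.14 (adjusted p = 0.0208 and 0.0126).

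**Figure D4:**
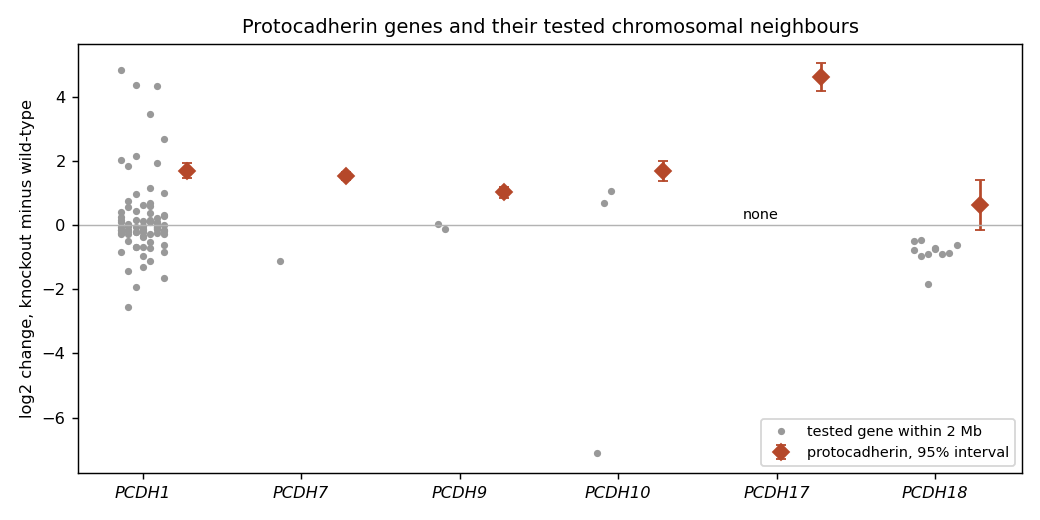
Log2 change (vertical axis, knockout minus wild-type) of the 6 tested protocadherins (red diamonds, 95% interval) and of the tested genes that start within 2 Mb (grey points). The diamonds of PCDH7, PCDH9, PCDH10 and PCDH18 stand above all their neighbours, PCDH1 lies below 9 of 79, and PCDH17 has no tested neighbour in the window.

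The genes most like the 3 largest risers were found by the root mean square difference of log2 CPM, centred on the mean of each gene, over the 8 samples and 13392 protein-coding genes. The measure reads the difference between groups first, so likeness here mostly follows the size of the change. Nearest to PCDH17 were TMEM200C (0.240), the antiviral gene RSAD2 (0.248) and PCDHAC1 (0.261), a gene of the alpha protocadherin cluster whose shared exons make its level uncertain. TMEM200C stood at 1.03 ± 0.168 CPM in knockout and 0.0122 ± 0.0141 CPM in wild-type (n = 4 each), from 200 counts in knockout and 2 in wild-type in all. The ratio of these totals scaled to library size was 90.1 (95% counting interval 24.6 to 749), and the fitted log2 change of 6.19 was above the 4.62 of PCDH17 and depends on the prior count. The log2 changes of RSAD2 and PCDHAC1 were 4.63 and 4.84. TMEM200C passed the filter on low counts only through the knockout samples (4 at the cutoff, against 0 in wild-type). So did PCDHAC1, which at 0.0922 ± 0.0230 CPM in wild-type lay below the cutoff of 0.213 CPM. RSAD2 stood at 0.226 ± 0.0875 CPM in wild-type, a spread too wide for all 4 samples to reach that cutoff. Like PCDH17, the 3 genes thus owe their place among the tested genes to the knockout samples. Nearest to PCDH1 were ZNF585A (0.131), STAT4 (0.141) and PPP1R14C (0.141), with log2 changes of 1.68, 1.80 and 1.82. Nearest to PCDH10 were NR4A3 (0.108), SOX5 (0.128) and CNKSR2 (0.132), with log2 changes of 1.63, 1.72 and 1.56.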

How the data were processed

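Per the labels' protocols, total RNA was freed of ribosomal RNA, made into stranded libraries and sequenced. The authors deposited whole-number counts per Ensembl gene, and variance-stabilized values on a log2 scale. The build hg38 and the tools DESeq2 1.23.10, FastQC 0.11.7, Subread 1.6.2, featureCounts and STAR 2.6.0c are listed in the submitters' processing notes. How strand and multimapping reads were treated, and with which annotation release, is not given in the sources used here.

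Symbols matched 60333 of 60646 identifiers and GENCODE 29 (GRCh38, the same build) 58459. The deposited counts were tested with edgeR 4.0.16 under R 4.3.3 (filterByExpr, trimmed-mean scaling, robust quasi-likelihood fit, group as the only term, Benjamini-Hochberg adjusted p below 0.05), and every adjusted p is from this test unless another tool is named. The procedure was also run on simulated data, and no result of that run is used here. CPM used trimmed-mean factors, log2 CPM a prior count of 2, and level per length all annotated exons. Counting intervals (95%) cover counting error only.

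Groups and numbers came from the sample titles. Samples with the same replicate number deviated together from their group means (correlations 0.369, 0.148, 0.146 and 0.373 over 13344 genes, against at most 0.0587 for other pairs), and the samples were therefore treated as pairs in 1 alternative. The pairing comes from the correlations and the shared numbers, not from a stated batch. No 2 samples of a group were alike within sampling noise (chi-square per degree of freedom 3.41 to 18.4). What the p-values measure is the spread between samples of a group, and that may be technical.

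The protocadherins and the related lists were chosen with earlier results of these data known. The named genes were all 8 protocadherins, DOT1L, every other non-clustered protocadherin and reported partner, up to 4 passing genes of each other list by smallest adjusted p, the 3 genes most like each of the 3 largest risers, and the nearest tested genes of those that passed. Alternatives were upper-quartile scaling, library totals, DESeq2 1.42.0, limma 3.58.1 on the variance-stabilized values, 2 other filters, a replicate block and each sample left out in turn. Promoter sequences are from RefSeq (GRCh38.p14). Protein sequences were not analysed here.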

Additional observations from a re-analysis of the deposited data

Results flagged for a closer look

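In 16 groups of 4 samples examined, 1 for each of the 8 genes in each group, 2 held a sample far from the other 3, where chance flags about 1 in 20 groups. PCDH7 in knockout replicate 3 stood at 59.5 CPM, above the other knockout samples at 54.2 to 55.0 CPM, and without that sample its log2 change was 1.51, against 1.55 with it. PCDH17 in knockout replicate 1 stood at 3.86 CPM, below the other knockout samples at 5.54 to 5.87 CPM, and without that sample its log2 change was 4.75, against 4.62 with it.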

How the results depend on the processing

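PCDH1, PCDH7, PCDH9 and PCDH10 passed as higher in knockout under all 15 alternatives, and PCDH17 under the 14 that kept it. The limit of a mean log2 CPM of at least 1 removed PCDH17 and PCDH18. The count of protocadherins that passed was 5 in most settings, 4 with that limit, 6 with the replicate block and 7 of 8 without a filter on low counts. When single samples were left out it ran from 5 to 6. The fit without a filter gave far smaller edgeR adjusted p at nearly the same changes (PCDH7 2.27e-140, against 1.11e-14), so its count is not comparable with the others. The log2 changes ranged from 1.35 to 1.81 for PCDH1, 1.45 to 1.61 for PCDH7, 0.90 to 1.09 for PCDH9, 1.01 to 1.79 for PCDH10 and 2.12 to 4.75 for PCDH17. The lowest value for each of these was that on the variance-stabilized scale, which compresses low counts by its construction. PCDH18 passed in 3 of 14 settings, with adjusted p from 0.0119 to 0.379, and its change ran from 0.29 to 0.93. The block changed no other protocadherin's call. It brought JUP (adjusted p = 0.00858), BRK1 (0.0178) and the leukocyte marker CD14 (0.0186) past the threshold among the listed genes. The count of all genes called ran from 7388 to 10472, against 9458. Higher genes made up 50.3% of them with trimmed-mean scaling, 61.9% with upper-quartile scaling and 61.2% with library totals, which moved the median of all genes to 0.07 in both. With the length of the longest transcript, an alternative chosen after seeing the data like the exchange within pairs, the order of levels per kb was the same, but PCDH7 stood at 8.25 CPM per kb in knockout and 2.82 in wild-type, against 4.56 and 1.56 by all exons. At 0.0198 to 0.0250 CPM per count, PCDH19 and PCDH20 are at the limit of detection.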

Other observations

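Setting each knockout sample against the wild-type sample of the same replicate number, the log2 CPM differences were positive in 4 of 4 pairs for PCDH1 (1.47 to 2.17), PCDH7 (1.46 to 1.67), PCDH9 (0.88 to 1.25), PCDH10 (1.42 to 1.92), PCDH17 (4.07 to 4.74) and PCDH20 (1.44 to 2.52). They were positive in 3 of 4 pairs for PCDH18 (-0.11 to 1.26) and PCDH19 (-0.73 to 2.55). Where all knockout samples lie above all wild-type samples, as for 21.3% of tested genes, all pairs are positive by construction. The share of all genes with 4 of 4 positive pairs was not computed. The differences of PCDH20 rest on 0 to 2 counts per wild-type library and depend on the prior count. Without a filter on low counts, edgeR gave PCDH20 a log2 change of 3.19 (SE 0.76, adjusted p = 0.000186) and PCDH19 one of 0.89 (SE 0.65, adjusted p = 0.340), over 37527 genes. That fit gave PCDH7 an edgeR adjusted p of 2.27e-140, against 1.11e-14 in the main fit, at nearly the same change. Its adjusted p for PCDH20, which had 3 wild-type counts, is therefore not comparable with those of the main fit.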
